A study of Homo sapiens with 24 samples.

Results

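A set of 10 genes of the BCL2 family, the proteins that decide whether the outer mitochondrial membrane stays intact during a death signal, were followed through the 24 RNA-seq libraries of this series. They were picked by symbol (BCL2, BCL2L1, MCL1, BAX, BAK1, BID, BBC3, PMAIP1, BCL2L11 and BIK). Of these 10 genes, 8 were listed in the Tet-One and Tet-MIST1 tables and 9 in the Tet-PTF1a table, out of 14409 genes listed in any table and 13519 listed in all 3. BCL2 had a row only in the Tet-PTF1a table, and BIK, a BH3-only gene, had a row in none. The tables keep genes above a CPM limit (CPM, counts scaled to a common library size), so the level of a gene without a row is not known here.

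The cells were Panc-1, a human line from a pancreatic ductal carcinoma, grown in medium with tetracycline-depleted serum. The 3 stable lines compared were each of them 1 clone picked after puromycin selection: Tet-One carried the empty doxycycline-inducible plasmid, Tet-MIST1 the same plasmid with the rat MIST1-myc coding sequence, and Tet-PTF1a with the mouse PTF1a-myc coding sequence. MIST1 and PTF1a are basic helix-loop-helix transcription factors of pancreatic acinar cells. Each line gave 4 Control libraries (no doxycycline) and 4 Dox libraries (1 µg/ml doxycycline for 72 h), all from polyA RNA; the Control cells carried the same plasmid as their Dox partners, and cells were at passage 32 (Tet-One, Tet-PTF1a) or 33 (Tet-MIST1). Since each line is 1 clone, the plasmid, the clone and its passage cannot be told apart in any comparison between lines. The libraries of a group are described as biological replicates, without saying whether they came from separately induced cultures.

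Proteins of this family fall into 3 roles. BCL2, BCL-XL (from BCL2L1) and MCL1 keep cells alive by holding the other members in check. BAX and BAK (from BAK1) are the effectors that open pores in the outer mitochondrial membrane and let cytochrome c out. The BH3-only proteins sense stress and tip the balance: BIM (BCL2L11), BID and PUMA (BBC3) can engage both the survival proteins and the effectors, and NOXA (PMAIP1) mainly binds MCL1. Much of this control acts on proteins, by cleavage, phosphorylation and turnover; the libraries measure mRNA only.

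Libraries held 17210989 to 43018494 counted reads, and both extremes were in the Tet-PTF1a line. Dox replicate 1 of Tet-One stood apart from the rest. Over 12020 genes the SD of its log2 CPM around the mean of its 3 partner libraries was 0.531. For those partners this SD was 0.184 to 0.207. Tests of members that rest on Dox replicate 1 are given with and without it. Group means, shares and the wider gene lists are given with all libraries only. Reads listed for PTF1A in the Tet-PTF1a line numbered 0 to 2 per Control library and 53 to 168 per Dox library; the expressed sequence is from mouse, so these reads do not tell the human gene from the plasmid. BHLHA15, the human gene for MIST1, had no row in the Tet-MIST1 table, so induction could not be checked there from its reads. All 6 ductal markers looked at (KRT7, KRT8, KRT18, KRT19, EPCAM, SOX9) and VIM were listed in every line, and none of the 4 leukocyte and endothelial markers was. Of 5 acinar markers only PRSS1 was listed, in the Tet-PTF1a table, at 0.0262 to 0.0943 CPM in Control and 2.81 to 3.47 CPM in Dox libraries. Summed over the 6 ductal genes, CPM was 3450 to 3620 in Tet-PTF1a Control and 1730 to 1780 in Tet-PTF1a Dox libraries. KRT8, KRT18 and KRT19 made up most of this sum, and the means of SOX9 (251.5 and 309.8 CPM) and KRT7 (1.44 and 4.52 CPM) were higher in Dox. The part of this shift in the values below was not tested.

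The sequences just upstream of the members' start sites are given first, since both induced proteins bind E boxes, the motif CANNTG. MIST1 is known for CAGCTG, and PTF1a, as part of a larger complex, for an E box with a TGGGAAA element nearby. The 250 bases before 4 start sites are shown, read 5′ to 3′ on the gene's strand from GRCh37 (the build of the files, hg19) at the start listed by the authors, with each E box in capitals. BCL2L1 and BCL2L11 are shown as the 2 members with the clearest change between Control and Dox libraries of the Tet-PTF1a line. Within these 250 bases, MCL1 was the member with a CAGCTG motif and BAX the member with the most E boxes.
BCL2L1, chr20:30310657-30310906, minus strand: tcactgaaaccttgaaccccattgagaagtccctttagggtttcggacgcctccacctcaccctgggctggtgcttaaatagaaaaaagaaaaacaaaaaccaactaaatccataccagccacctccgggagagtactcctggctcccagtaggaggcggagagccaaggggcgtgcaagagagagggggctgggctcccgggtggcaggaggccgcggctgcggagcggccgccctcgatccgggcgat
BCL2L11, chr2:111878241-111878490, plus strand: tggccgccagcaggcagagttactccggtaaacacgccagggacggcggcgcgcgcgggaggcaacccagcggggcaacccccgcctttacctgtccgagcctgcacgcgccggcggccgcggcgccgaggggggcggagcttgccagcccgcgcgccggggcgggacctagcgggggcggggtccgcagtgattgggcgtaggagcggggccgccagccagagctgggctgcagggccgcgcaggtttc
MCL1, chr1:150552215-150552464, minus strand: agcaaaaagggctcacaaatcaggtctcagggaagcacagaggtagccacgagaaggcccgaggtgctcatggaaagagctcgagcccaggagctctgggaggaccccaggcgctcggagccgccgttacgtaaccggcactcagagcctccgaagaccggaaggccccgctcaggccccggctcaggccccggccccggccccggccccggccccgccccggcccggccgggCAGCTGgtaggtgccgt
BAX, chr19:49457867-49458116, plus strand: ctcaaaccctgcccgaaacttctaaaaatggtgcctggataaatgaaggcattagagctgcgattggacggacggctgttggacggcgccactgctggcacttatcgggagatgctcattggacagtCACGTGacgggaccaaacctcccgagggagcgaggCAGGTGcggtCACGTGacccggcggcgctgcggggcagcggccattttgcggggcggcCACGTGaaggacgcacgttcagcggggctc
No E box stood in the windows of BCL2L1 and BCL2L11. In MCL1 a CAGCTG began 17 bases before the start, and BAX held 4 E boxes, 3 of them CACGTG. Among all 9 members with a listed start, 5 had an E box in this window (BCL2, MCL1, BAX, BID and BBC3), compared with 54.8% of the 14254 promoters read the same way. CAGCTG was found in 1 of 9 (12.3% of all promoters) and TGGGAAA in 2 of 9 (6.64%), and no member had both with their centres 10 to 12 or 20 to 22 bases apart (0.175% of all promoters). In the longer window of 1000 bases before to 100 after the start, CAGCTG was found in 4 of 9 members against 41.7% of promoters. These members were BCL2L1, MCL1, BAK1 and BCL2L11. An E box was found there in 9 of 9 members against 97.8% of promoters, with 4 in BCL2L1, 5 in BCL2L11 and 6 each in MCL1, BAX and BBC3. These matches on either strand are a description of the letters; binding was not measured here. The listed start of BCL2 lay 389 bases from the nearest GENCODE transcript start, and those of the other 8 members within 36 bases.

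Divided by gene length, the survival genes MCL1 and BCL2L1 led the listed members in every group. In Tet-One Control libraries the mean CPM per kilobase was 87.9 ± 6.82 for MCL1 and 53.5 ± 2.87 for BCL2L1 (SD, n = 4 throughout), followed by the effectors BAX at 37.04 ± 3.15 and BAK1 at 17.7 ± 0.897. The BH3-only genes among the listed members came below them, with BID at 9.91 ± 0.433, PMAIP1 at 4.92 ± 1.42, BCL2L11 at 3.85 ± 0.24 and BBC3 at 3.12 ± 0.106. The spreads of PMAIP1 and BCL2L11 overlapped, so their order is not firm. Without division by length, BCL2L11 (23.88 CPM) stood above PMAIP1 (9.519 CPM) in this group. The BBC3 libraries (3.016 to 3.226) lay below those of BCL2L11 (3.615 to 4.106) and just below the lowest PMAIP1 library (3.275). The other lines departed from this order in a few places. In Tet-MIST1 Control libraries BCL2L1 stood above MCL1 (117 ± 1.36 against 75.3 ± 1.47 CPM per kilobase). That order rests on the division by length, since the undivided means were 298.5 CPM for BCL2L1 and 307.6 CPM for MCL1. In Tet-PTF1a Control libraries BCL2L11 reached 8.31 ± 0.353 and PMAIP1 8.2 ± 1.49 CPM per kilobase. BCL2 itself, the founding member of the family, was near the detection limit: 0.0798 ± 0.0332 CPM per kilobase in Tet-PTF1a Control libraries, from 6 to 24 reads a library.

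The make-up of the survival group is given as shares. Of the summed CPM per kilobase of the listed survival genes, BCL2L1 held 34.8 ± 1.36% in Tet-PTF1a Control, 37.9 ± 1.58% in Tet-One Control and 60.8 ± 0.343% in Tet-MIST1 Control libraries, with nearly all of the rest in MCL1. Without division by length, BCL2L1 held 49.2 ± 0.36% in Tet-MIST1 Control libraries. After Dox the share of BCL2L1 was 39.3 ± 0.967% in Tet-PTF1a, 39.0 ± 0.868% in Tet-One and 59.7 ± 1.04% in Tet-MIST1. In Tet-PTF1a the Dox range (38.1 to 40.2%) lay above the Control range (33.0 to 36.2%), while in both other lines the ranges of Control and Dox libraries overlapped. BCL2 held 0.0692 ± 0.0297% of the sum in Tet-PTF1a Control and 0.0882 ± 0.0149% in Tet-PTF1a Dox libraries.

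**Figure D1:**
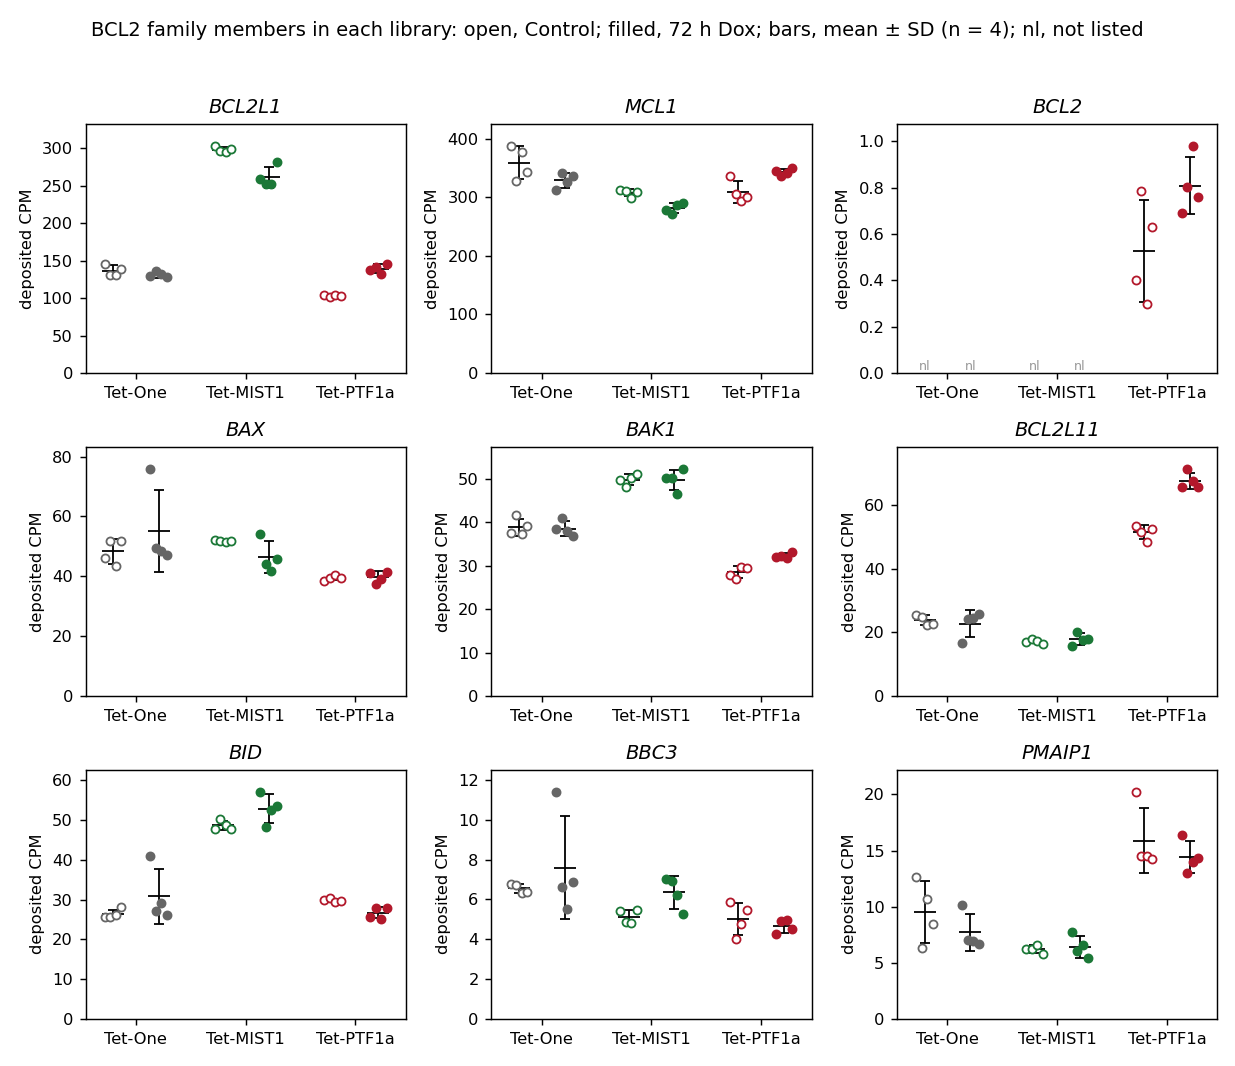
Deposited CPM (vertical axes, linear, from 0) of the 9 listed members in each of the 24 libraries by line, with open points for Control, filled points for Dox and bars for mean ± SD of 4 libraries. BCL2L1 in Tet-MIST1 (252 to 303 CPM) and BCL2L11 in Tet-PTF1a (48.6 to 71.3 CPM) stand above the other lines, and 1 Tet-One Dox library is high for BAX (75.8 CPM).

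Before any Dox, 7 of 8 members differed between the Tet-MIST1 and the Tet-One clone (edgeR quasi-likelihood test, Benjamini-Hochberg FDR under 0.05 over all genes), 3 higher and 4 lower. This share is close to the background, since 80.2% of all 13823 genes tested differed between these Control libraries (39.5% higher and 40.7% lower). On a common scale of the 24 libraries, BCL2L1 had a mean of 302 CPM in Tet-MIST1 Control (298 to 307) and 139 CPM in Tet-One Control (132 to 149), a log2 difference of 1.12 ± 0.0382 (SE; FDR 2.31e-15). BID followed with 49.3 against 26.8 CPM (log2 0.88), and BAK1 with 50.4 against 39.5 CPM (log2 0.35). Lower in Tet-MIST1 Control were PMAIP1 (log2 -0.62), BCL2L11 (log2 -0.48), BBC3 (log2 -0.36) and MCL1 (log2 -0.23). The PMAIP1 libraries of the 2 clones overlapped, and its FDR of 0.0193 became 0.0577 without Tet-MIST1 Control replicate 4. BAX missed the threshold at log2 0.09 (95% interval -0.01 to 0.20), and passed it without Tet-One Control replicate 2 (FDR 0.0428) or 4 (FDR 0.0387).

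Between the Tet-PTF1a and Tet-One clones, 7 of 8 members differed before Dox as well, 2 higher and 5 lower, again beside a background of 79.7% of 13442 genes (39.5% higher and 40.2% lower). BCL2L11 was higher in Tet-PTF1a Control, at 50.1 CPM on the common scale (46.9 to 52.3) against 24.3 CPM in Tet-One Control (22.9 to 26.04), a log2 difference of 1.03 ± 0.0496 (FDR 9.19e-12). PMAIP1 was higher by 0.68 on the log2 scale (FDR 0.031), a call that was lost without Tet-One Control replicate 3 (FDR 0.0519) or 4 (FDR 0.0878) or Tet-PTF1a Control replicate 1 (FDR 0.0604). Lower in Tet-PTF1a Control were BAK1 (log2 -0.53), BCL2L1 (log2 -0.49), BBC3 (log2 -0.41), BAX (log2 -0.38) and MCL1 (log2 -0.30). Several of these values moved when a trend with gene length and GC content was taken out of each library, a setting chosen after the data were seen: BCL2L11 became 0.65, MCL1 -0.48, BCL2L1 -0.12, BAK1 -0.06 (FDR 0.135), BBC3 -0.12 (FDR 0.318), PMAIP1 0.52 (FDR 0.0829) and BAX 0.21 with the opposite sign. BID missed the threshold at log2 0.10 (FDR 0.0543) and passed it without Tet-One Control replicate 4 (FDR 0.0183), with library size in place of TMM (0.18, FDR 0.00107), with the trend with gene length removed (0.21, FDR 0.000234) and with that of length and GC removed (0.28, FDR 2.86e-06). Both comparisons used the same 4 Tet-One Control libraries.

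With Dox, the Tet-PTF1a line had more members past the test than either other line. Here 6 of 9 members passed FDR 0.05, 5 higher and 1 lower in Dox, beside 48.2% of all 14051 genes tested (23.8% higher and 24.4% lower; scaling by library size alone in place of TMM turned the split of all called genes from 49.4% to 61.9% higher). The median log2 change was 0.15 over the 9 members and 0.0 over all genes. The Dox and Control libraries did not overlap for 5 members, against 42.3% of all genes. In bulk RNA of this kind, a change in some of the cells and a smaller change in all of them cannot be told apart.

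Among the survival genes, BCL2L1 measured 104, 101, 104 and 103 CPM in the 4 Control libraries and 137, 142, 132 and 146 CPM in the 4 Dox libraries. Every Dox library lay above every Control library, and the fitted rise was 1.36-fold (log2 0.44 ± 0.0286, SE; edgeR FDR 1.56e-18). The gene lies at chr20:30252261-30310656 on the minus strand, and 930 of its 2559 exonic bases overlap the antisense gene ABALON. ABALON was listed in the Tet-PTF1a table only, with 6 to 28 reads a library, against 1805 to 4795 reads for BCL2L1. MCL1 (chr1:150547027-150552214), whose protein turns over quickly, measured 335, 305, 293 and 301 CPM in Control and 345, 337, 342 and 349.8 CPM in Dox libraries. The groups did not overlap, though the highest Control library came close to the lowest Dox library, and the rise was 1.11-fold (log2 0.15 ± 0.035; edgeR FDR 0.00241).
BCL2 (chr18:60790579-60986613) was measured with 17, 14, 6 and 24 reads in Control and 12, 17, 19 and 25 reads in Dox libraries, or 0.401, 0.784, 0.298 and 0.63 CPM against 0.689, 0.801, 0.979 and 0.761 CPM. The groups overlapped, and the log2 change of 0.64 had a 95% interval of 0.09 to 1.19 (edgeR FDR 0.0478). This call was lost with DESeq2 (adjusted p 0.137) and in 6 of the 8 fits without 1 library: without Control replicate 1 (FDR 0.185) or 3 (FDR 0.121), or without Dox replicate 1 (FDR 0.0502), 2 (FDR 0.0779), 3 (FDR 0.131) or 4 (FDR 0.0642). The change of BCL2 was thus not firm at this depth.

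Of the effector genes, BAK1 passed the test and BAX did not. BAK1 (chr6:33540323-33548070) measured 27.9, 26.8, 29.7 and 29.5 CPM in Control and 32.0, 32.2, 31.8 and 33.0 CPM in Dox libraries. All Dox libraries were higher than all Control libraries, with a rise of 1.13-fold (log2 0.18 ± 0.0438; edgeR FDR 0.000531). BAX (chr19:49458117-49465055) measured 38.5 to 40.3 CPM in Control and 37.3 to 41.5 CPM in Dox libraries. These ranges overlapped, and the log2 change of 0.02 had a 95% interval of -0.06 to 0.10 (edgeR FDR 0.753). The difference between the 2 genes was not tested.

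Of the BH3-only genes, BCL2L11 rose, BID fell, and BBC3 and PMAIP1 did not pass the test. BCL2L11 (chr2:111878491-111926022), which encodes BIM, measured 53.6, 51.6, 48.6 and 52.7 CPM in Control and 65.6, 71.3, 67.7 and 65.8 CPM in Dox libraries. The groups were well separated, and the rise was 1.3-fold (log2 0.38 ± 0.0353; edgeR FDR 3.95e-13). This came on top of a level that, in the Control libraries, was already above that of both other lines. BID (chr22:18216906-18257431), whose protein links death receptors to mitochondria after cleavage by caspase-8, measured 30.0, 30.4, 29.4 and 29.6 CPM in Control and 25.7, 27.9, 25.2 and 27.9 CPM in Dox libraries. All Dox libraries were lower, and the fitted fall was 0.15 on the log2 scale (SE 0.0453; edgeR FDR 0.00394); with all 24 libraries in 1 fit, which share a larger spread, the FDR was 0.276. BBC3 (chr19:47724079-47736023), which encodes PUMA, measured 4.03 to 5.85 CPM in Control and 4.25 to 4.94 CPM in Dox libraries, with a log2 change of -0.17 (95% interval -0.38 to 0.04; edgeR FDR 0.191). PMAIP1 (chr18:57567192-57571538), which encodes NOXA, measured 20.2, 14.6, 14.5 and 14.2 CPM in Control and 16.4, 12.96, 14.0 and 14.3 CPM in Dox libraries. Control replicate 1 was high, and the groups overlapped (log2 -0.18, 95% interval -0.55 to 0.18; edgeR FDR 0.38). BCL2L1, MCL1, BAK1, BCL2L11 and BID each kept their call in 8 of 8 fits without 1 library.

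In the Tet-MIST1 line the share of members called was near that of all genes, and the calls were lost in several fits without 1 library. Here 2 of 8 members passed FDR 0.05, 1 lower and 1 higher, beside 20.6% of all 13621 genes tested (11.9% higher and 8.77% lower; with a trend with gene length removed, the split of all called genes went from 57.5% to 47.9% higher). The median log2 change was 0.04 over the 8 members. BCL2L1 fell, from 303, 297, 295 and 299.8 CPM in Control to 260, 252, 252 and 282 CPM in Dox libraries. The groups did not overlap, and the fold of Dox over Control was 0.882 (log2 -0.18 ± 0.047; edgeR FDR 0.0201). The call was lost without Control replicate 1 (FDR 0.0689), 3 (FDR 0.0564) or 4 (FDR 0.0527) or Dox replicate 3 (FDR 0.0571), with the log2 change between -0.22 and -0.16 in all 8 such fits. BBC3 measured 5.39, 4.84, 4.81 and 5.47 CPM in Control and 7.02, 6.92, 6.23 and 5.24 CPM in Dox libraries. Dox replicate 4 lay inside the Control range, and the log2 change was 0.33 ± 0.0983 (edgeR FDR 0.0365). That call was lost without any 1 of the 4 Control libraries (FDR 0.0664, 0.0962, 0.108 and 0.0527), without Dox replicate 2 (FDR 0.0558) or 3 (FDR 0.0649), and with the trend with gene length removed (FDR 0.0552).

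The other 6 members of the Tet-MIST1 line did not pass. MCL1 was the only other member whose groups did not overlap (against 27.1% of all genes), at 299 to 312 CPM in Control and 272 to 290 CPM in Dox libraries (log2 -0.12, 95% interval -0.20 to -0.03; edgeR FDR 0.064). BAX measured 52.2, 51.9, 51.5 and 51.8 CPM in Control and 54.1, 44.1, 41.8 and 45.8 CPM in Dox libraries. Dox replicate 1 was above all Control libraries and the other 3 below them; the log2 change was -0.15 with all libraries (edgeR FDR 0.159), -0.23 without Dox replicate 1 (FDR 0.000707), and -0.27 with the trend with gene length removed (FDR 0.000508). MCL1 also passed with DESeq2 (adjusted p 0.0199) and without Dox replicate 1 (log2 -0.11, FDR 0.0475), so that 4 of 8 members were called without this library, beside 25.4% of all genes in that fit. BID had a log2 change of 0.13 (FDR 0.117; 0.17 and FDR 0.0254 without Dox replicate 2), and BCL2L11, PMAIP1 and BAK1 had log2 changes of 0.07, 0.07 and 0.01. With the trend with length and GC removed, BCL2L11 passed at 0.15 (FDR 0.0411) and PMAIP1 was at -0.07 (FDR 0.536).

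In the Tet-One line, which carries no transgene and serves as the control for Dox itself, no member passed. No gene of the 13426 tested did either (0.0%; smallest edgeR FDR 0.897, with 401 genes and 0 members at an unadjusted p under 0.05; DESeq2 called 0 members as well). The log2 changes of the 8 members ran from -0.30 (PMAIP1) to 0.23 (BID), with a median of -0.03. Control and Dox libraries overlapped for all 8, against 2.44% of all genes without overlap. The intervals were wide, for example -0.16 to 0.56 for BAX and -0.24 to 0.68 for BBC3. Dox replicate 1 was far from its group for several members: it measured 75.8 CPM for BAX, against 47.1 to 49.6 CPM in the other 3 Dox libraries, 41.0 against 26.2 to 29.0 CPM for BID, 11.4 against 5.52 to 6.86 CPM for BBC3 and 16.5 against 24.4 to 25.7 CPM for BCL2L11. Without it the log2 change was 0.0 for BAX, 0.06 for BID, -0.05 for BBC3, 0.06 for BCL2L11 and -0.46 for PMAIP1, and still no member passed. The share of all genes passing in that fit is not given here. With the wide spread of the full fit, the absence of calls does not show that Dox left these genes unchanged. The common biological coefficient of variation fell from 14.4% to 4.8% when this library was left out, and it was 6.58% for Tet-MIST1 and 2.8% for Tet-PTF1a. Counts of called members in the 3 lines thus rest on unequal spreads.

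**Figure D2:**
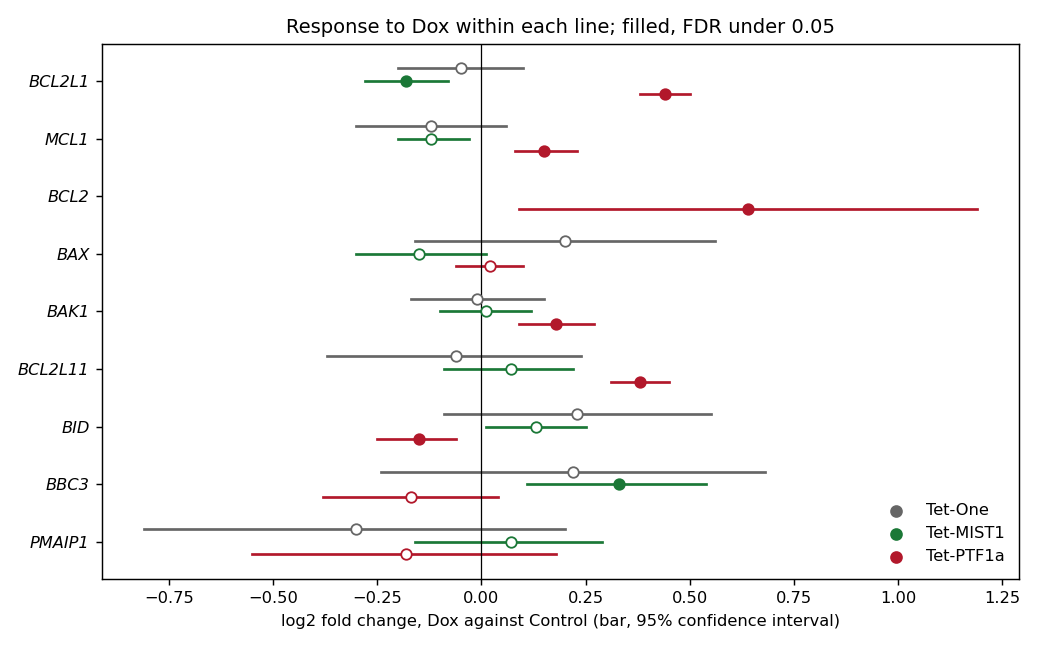
Log2 fold change of Dox against Control (horizontal axis) for each member, with grey for Tet-One, green for Tet-MIST1 and red for Tet-PTF1a, bars for 95% confidence intervals and filled points for FDR under 0.05. In Tet-PTF1a, BCL2L1 (0.44) and BCL2L11 (0.38) lie to the right of zero with short bars, and BCL2 (0.64) has an interval from 0.09 to 1.19.

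Whether a member responded differently in 2 lines was tested as the interaction of line and Dox. Between Tet-PTF1a and Tet-MIST1, 6 of 8 members differed, 4 with the higher response in Tet-PTF1a and 2 with the lower, beside 36.4% of 13519 genes (17.8% higher and 18.6% lower). BCL2L1 had the largest difference at 0.63 ± 0.056 on the log2 scale (edgeR FDR 1.6e-08), made up of a rise in Tet-PTF1a and a fall in Tet-MIST1. Among members with the higher response in Tet-PTF1a, BCL2L11 followed with 0.33 (FDR 0.00306), then MCL1 with 0.28 (FDR 0.000412) and BAK1 with 0.18 (FDR 0.027). The response was lower in Tet-PTF1a for BBC3 by -0.48 (FDR 0.0194) and for BID by -0.27 (FDR 0.00543). BCL2L1, MCL1, BCL2L11 and BID kept their calls in 16 of 16 fits without 1 library. BBC3 lost its call without Tet-PTF1a Control replicate 1 (FDR 0.0676) and with the trend with length and GC removed (-0.26, FDR 0.162). BAK1 lost its call in 7 of 16, namely without Tet-MIST1 Dox replicate 3, Tet-PTF1a Control replicate 1 or 2, or any Tet-PTF1a Dox library, with FDR up to 0.0885. With all 24 libraries in 1 fit, the FDR was 0.107 for BCL2L11, 0.0904 for BAK1, 0.14 for BID and 0.179 for BBC3. BAX did not pass (0.17, 95% interval -0.01 to 0.35). It passed without Tet-MIST1 Dox replicate 1 (0.26, FDR 0.00043), with the trend with gene length removed (0.31, FDR 0.000126), with that of length and GC removed (0.32, FDR 2.79e-05), and when scaled by library size alone (0.21, FDR 0.0479). PMAIP1 had a difference of -0.22 (95% interval -0.58 to 0.13).

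Against the Tet-One line, 2 of 8 members had a higher response in Tet-PTF1a, beside 12.8% of 13519 genes (5.52% higher and 7.32% lower): BCL2L1 by 0.49 ± 0.0683 (edgeR FDR 0.000125) and MCL1 by 0.28 ± 0.0865 (FDR 0.0466). BCL2L1 passed in 16 of 16 fits without 1 library and MCL1 in 5 of 16, with FDR from 0.00996 to 0.105. MCL1 lost its call without Tet-One Control replicate 1 or 3, Tet-One Dox replicate 3 or 4, Tet-PTF1a Control replicate 2, 3 or 4, or any Tet-PTF1a Dox library. BCL2L11 had a difference of 0.45 (FDR 0.0539), and it passed when any 1 of the 4 Tet-One Dox libraries was left out (FDR 0.000372, 0.0458, 0.0438 and 0.0264). Without Tet-One Dox replicate 1, 5 of 8 members passed, beside 30.7% of all genes: BCL2L1 (0.49), BCL2L11 (0.33), MCL1 (0.26), BAK1 (0.19, FDR 0.0298) and BID (-0.21, FDR 0.02). Between Tet-MIST1 and Tet-One, no member differed in response (edgeR, beside 1.66% of 13877 genes, 1.48% higher and 0.187% lower, with 0 members at an unadjusted p under 0.05; DESeq2 also called 0). The difference for BCL2L1 was -0.13 (95% interval -0.29 to 0.02), so the fall of BCL2L1 within Tet-MIST1 was not shown to exceed what Dox did in the line without a transgene. Without Tet-One Dox replicate 1, again 0 of 8 members passed, beside 13.9% of all genes. The difference was then 0.38 for BBC3 (95% interval 0.10 to 0.66; FDR 0.062), 0.54 for PMAIP1 (0.05 to 1.03; FDR 0.123) and -0.14 for BAX (-0.35 to 0.06; FDR 0.334), against 0.10, 0.36 and -0.35 with all libraries. With all libraries and the trend with gene length removed, BAX passed (-0.31, FDR 0.0146). Both comparisons with Tet-One share its 8 libraries.

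**Figure D3:**
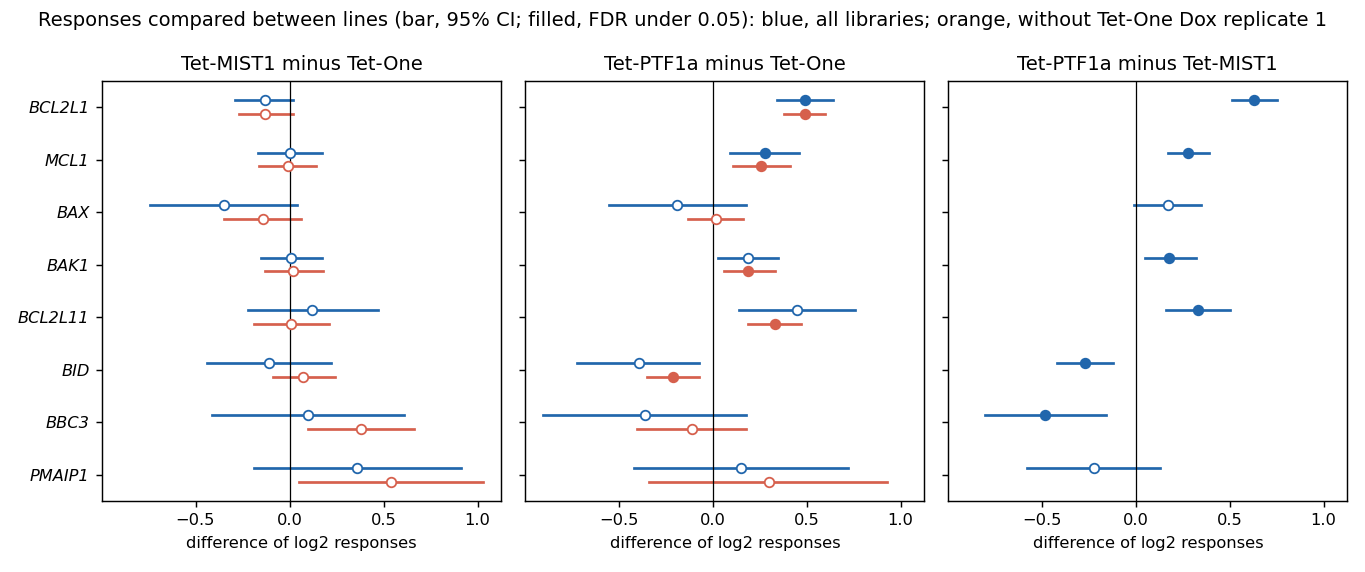
Differences between lines in the log2 response to Dox (horizontal axes) for 8 members, in blue with all libraries and in orange without Tet-One Dox replicate 1, with bars for 95% confidence intervals and filled points for FDR under 0.05. BCL2L1 lies right of zero in both comparisons with Tet-PTF1a (0.49 and 0.63), and no point is filled for Tet-MIST1 against Tet-One.

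On the common scale, the levels reached after Dox can be read against the other clones. BCL2L1 in Tet-PTF1a Dox libraries (128 to 141 CPM) overlapped the ranges of Tet-One Dox (129.8 to 139 CPM) and Tet-One Control libraries (132 to 149 CPM), while Tet-PTF1a Control (98.0 to 101 CPM) lay below them and both Tet-MIST1 groups (256 to 307 CPM) above. The Tet-PTF1a Dox libraries thus overlapped those of the empty line on this scale, which does not take out the trend with length and GC content that moved the Control difference of BCL2L1 from -0.49 to -0.12. For BCL2L11, Tet-PTF1a Control (46.9 to 52.3 CPM) was above all libraries of the other lines (16.1 to 26.1 CPM), and Tet-PTF1a Dox (63.4 to 69.2 CPM) was higher again. MCL1 spanned a narrow range over the 6 groups, from a mean of 288 CPM in Tet-MIST1 Dox to 365 CPM in Tet-One Control libraries, and most neighbouring groups overlapped. BAK1 after Dox in Tet-PTF1a (30.8 to 32.0 CPM) lay below both other lines (37.4 to 53.2 CPM) on this scale, though its Control difference from Tet-One of -0.53 became -0.06 (FDR 0.135) with the length and GC trend removed. Among 12974 genes, those whose log2 CPM over the 24 libraries was most like that of BCL2L1 were STK40, GPSM3, VPS18, PROCR and ALAS1 (Pearson r 0.985, 0.981, 0.979, 0.978 and 0.978). BCL2 had the largest change but no row in 2 tables and could not be used for this. With the mean of each line taken off, these values were 0.876, 0.725, 0.716, 0.649 and 0.735; the libraries of a line share their clone, so this is a description.

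The rest of the BCL2 family, a list of 13 genes of which 9 were tested, had 5 calls in each line with a transgene, beside 20.6% of all genes in Tet-MIST1 and 48.2% in Tet-PTF1a. In Tet-MIST1 5 of 9 rose and none fell, with a median log2 change of 0.16 against 0.0 over all genes. BMF, a BH3-only gene tied to the cytoskeleton, had the largest rise, from 1.97 ± 0.112 to 4.08 ± 0.483 CPM (log2 1.06 ± 0.106; edgeR FDR 5.29e-05). On the common scale, BMF had a mean of 4.17 CPM in Tet-MIST1 Dox libraries. That was below its means in Tet-One Control (9.81 CPM) and Tet-PTF1a Control libraries (6.41 CPM). BCL2L12 (log2 0.43), the survival gene BCL2L2 (log2 0.28) and the mitophagy receptor genes BNIP3 (log2 0.26) and BNIP3L (log2 0.16) also rose. In Tet-PTF1a 2 of 9 rose and 3 fell (median -0.09): BMF rose by log2 0.27 (FDR 0.00364) and BCL2L12 by 0.14, and BNIP3L (log2 -0.36; FDR 7.35e-15), BNIP3 (log2 -0.31) and BAD (log2 -0.24), whose BH3-only protein binds BCL-XL, fell. In Tet-One 0 of 9 passed, with a log2 change of 0.33 ± 0.195 for BCL2L12 and -0.04 ± 0.142 for BMF. The Tet-One Dox libraries of BCL2L12 ran from 35.65 to 64.74 CPM with a median of 37.39 CPM, so 1 library stood far above the rest. For this and the following lists, responses were not compared between lines. BCL2L10, BCL2L14, BCL2L15 and HRK had no row to test. BCL2L12 and BAD share 392 and 128 exonic bases with a gene on the opposite strand.

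Downstream of the mitochondria, 18 genes for pore proteins, released factors, caspases and their inhibitors were tested in each line. In Tet-PTF1a 5 rose and 2 fell (median 0.01), 7 of 18 in all beside 48.2% of all genes. The largest rise was in CASP9, the initiator caspase activated by APAF1, from 8.74 ± 0.308 to 12.3 ± 1.26 CPM (log2 0.48 ± 0.0735; FDR 3.32e-07), and the largest fall in CASP6, an executioner caspase (log2 -0.30). APAF1, which binds cytochrome c, rose by log2 0.10 (FDR 0.014). In Tet-MIST1 4 rose and 1 fell (median 0.02), 5 of 18 in all beside 20.6% of all genes. The fall was that of APAF1 (log2 -0.20; FDR 0.036). In Tet-One 0 of 18 passed. APAF1, DIABLO, ENDOG and HTRA2 each overlap at least 1 gene on the opposite strand.

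Of the death receptor pathway, which reaches this family through BID, 11 genes were tested in Tet-MIST1 and Tet-PTF1a and 10 in Tet-One. In Tet-PTF1a, 1 rose (FADD, the adaptor of FAS, log2 0.19) and 2 fell: TNFRSF1A, the main TNF receptor, from 59.9 ± 3.93 to 36.0 ± 0.221 CPM (log2 -0.74 ± 0.04; FDR 2.37e-21), and FAS from 5.87 ± 0.345 to 3.61 ± 0.244 CPM (log2 -0.71 ± 0.101; FDR 6.19e-08). CASP8, which cleaves BID, measured 37.3 ± 1.35 and 38.2 ± 1.92 CPM (FDR 0.651). In Tet-MIST1, TRADD rose (log2 0.47; FDR 0.00329) and TNFRSF10A, a TRAIL receptor, fell (log2 -0.42; FDR 0.00396). These 3 of 11 and 2 of 11 calls stand beside 48.2% and 20.6% of all genes. In Tet-One 0 of 10 passed. The median log2 change was 0.03 in Tet-PTF1a, -0.02 in Tet-MIST1 and -0.06 in the empty line.

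Among genes for regulators that act on BH3-only genes, 2 of 13 rose, 6 fell and 5 did not pass in Tet-PTF1a (median -0.10), beside 23.8% of all genes higher and 24.4% lower. The largest fall was in DDIT3, which encodes the stress factor CHOP, from 46.0 ± 9.92 to 29.9 ± 1.91 CPM (log2 -0.64 ± 0.174, edgeR FDR 0.0224). Its Control libraries ran from 38.2 to 60.45 CPM, with a median of 42.8 CPM. DDIT3 shares 68 exonic bases with a gene on the opposite strand. JUN (log2 -0.48, edgeR FDR 3.99e-20) and E2F1 (log2 -0.22) also fell, and FOXO3 did not pass (log2 -0.06, edgeR FDR 0.225). The largest rise was in FOXO1 (log2 0.38 ± 0.11, edgeR FDR 0.00333). CDKN1A, a cell cycle inhibitor gene, rose (log2 0.26). In Tet-MIST1, 2 of 13 rose, ATF3 (log2 0.76 ± 0.0937; FDR 0.000249) and E2F1 (log2 0.17), and none fell (median 0.01), beside 11.9% and 8.77% of all genes. In Tet-One 0 of 12 passed (median -0.06).

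Genes for proteins that control the stability or location of MCL1, BIM and NOXA were followed with 8 tested genes. In Tet-PTF1a 4 rose and 2 fell (median 0.05), beside 48.2% of all genes called: FBXW7, whose ubiquitin ligase targets MCL1, had the largest rise (log2 0.21; FDR 0.00244), and DYNLL1, a dynein light chain that holds BIM, the largest fall (log2 -0.10; FDR 0.00118). HUWE1, another MCL1 ligase, fell by 0.06 on the log2 scale (FDR 0.0172) and USP9X, a deubiquitinase of MCL1, rose by log2 0.09 (FDR 0.000799). In Tet-MIST1 (20.6% of all genes called) and Tet-One (0.0%) 0 of 8 passed, with medians of -0.07 and -0.03. MARCH5 could not be matched, since 20 gene names per table had been turned into dates. All 5 lists were drawn up by function with earlier results of these data known, so their counts are a description.

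**Figure D4:**
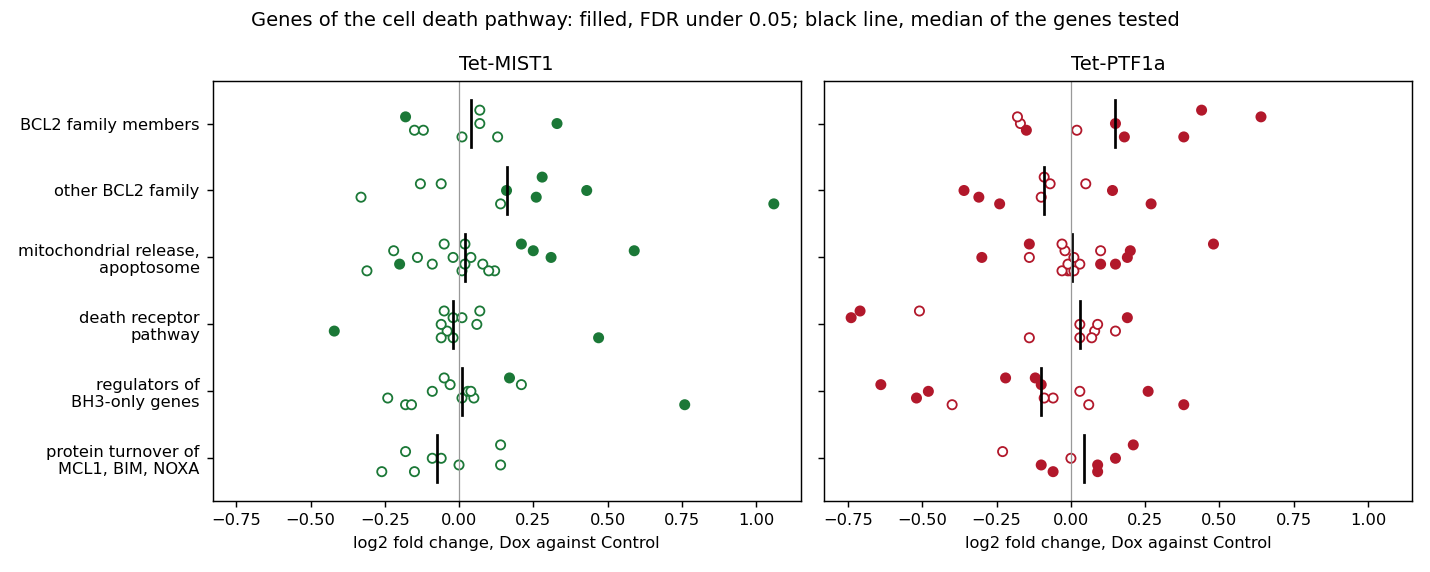
Log2 fold change of Dox against Control (horizontal axes) for each tested gene of the 9 or 8 listed members and the 5 wider lists (rows), in Tet-MIST1 (left) and Tet-PTF1a (right), with filled points for FDR under 0.05 and black lines for the median. BMF lies farthest right in Tet-MIST1 (1.06), and TNFRSF1A (-0.74) and FAS (-0.71) farthest left in Tet-PTF1a.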

How the data were processed

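PolyA RNA of 24 Panc-1 libraries (3 lines, Control and Dox, n = 4) was sequenced in paired ends. Per the labels and methods, the authors aligned reads to hg19 with TopHat; HTSeq, DESeq and edgeR are also named in the submitters' processing notes, without roles, and versions, annotation and strand handling are not given in the sources used here. The deposited tables, 1 per line, give raw counts per gene and CPM per library, kept where CPM was above 0.5 in at least 4 samples, and 0 other columns of samples; the deposited CPM values were made by the authors with scaled library sizes, within a table. The Tet-One and Tet-MIST1 tables list 13879 genes each and that of Tet-PTF1a lists 14053; 2 rows per table with a repeated name were left out.

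Counts were tested with edgeR 4.0.16 (R 4.3.3): TMM scaling, genes above 0.5 CPM in at least 4 libraries of the fit, robust glmQLFit and glmQLFTest, Benjamini-Hochberg adjustment over all genes tested, call at FDR under 0.05. Fold changes use a prior count of 0.125. Each line was fitted on its 8 libraries, responses of 2 lines on 16 libraries with an interaction term, and Control libraries of 2 lines on 8. Levels between lines use CPM from a common TMM scaling of the 24 libraries; levels between genes are CPM divided by the listed length. The code was tested on simulated data. Totals of 17210989 to 43018494 counted reads limit precision mainly for BCL2 (6 to 25 reads); p-values measure the spread between these libraries, which may be technical in part. In 36 pairs of replicates the counts differed by more than counting error (ratio of chi-square to its degrees of freedom 1.39 to 238). Alternatives were DESeq2 1.42.0, the likelihood ratio test, other scalings, no filter, a fold limit, removal of a length trend, a replicate block, a fit of all libraries and leaving out each library; removal of a length and GC trend was added after the data were seen. Members and lists were chosen with earlier results of these data known. By the naming rule, each list's called genes with the largest rise and fall per line are named, with up to 2 more that touch a member; further called genes of a list, and CDKN1A, were named after their values were seen. Some genes that the rule would name are not reported here.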

Additional observations from a re-analysis of the deposited data

Results flagged for a closer look

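Within groups of 4 libraries, 4 of 50 sets of member values had 1 library far from the other 3 by Dixon's rule, which chance alone gives in about 1 of 20. Of these, 3 were Dox replicate 1 of Tet-One, which was the highest of its group for BAX (75.8 CPM) and PMAIP1 (10.1 CPM) and the lowest for BCL2L11 (16.5 CPM). The other was Control replicate 1 of Tet-PTF1a, the highest for PMAIP1 (20.2 CPM). The same Tet-One library had the widest deviation over all genes (SD 0.531); its part in the outlying values was not tested further.

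The response to Dox differed between lines, by the interaction term, for BCL2L1 (0.49 on the log2 scale) and MCL1 (0.28) in Tet-PTF1a against Tet-One. In Tet-PTF1a against Tet-MIST1 it differed for BCL2L1 (0.63), BCL2L11 (0.33), MCL1 (0.28), BAK1 (0.18), BID (-0.27) and BBC3 (-0.48). Each line is 1 clone, so clone and transgene cannot be told apart in these differences.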

How the results depend on the processing

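The number of members called under other settings was as follows. In Tet-PTF1a (6 of 9) it was 5 to 6 when 1 library was left out. With a log2 change of at least 0.5 also required it was 1, namely BCL2, whose call was not firm. In Tet-MIST1 (2 of 8) it was 0 to 4 when 1 library was left out (0 without Control replicate 1, 3 or 4 or Dox replicate 3, 1 without Control replicate 2, 4 without Dox replicate 1), 0 with the limit of 0.5, and 1 with all 24 libraries in 1 fit. For the response of Tet-PTF1a against Tet-One (2 of 8) it was 1 to 5 when 1 library was left out, 0 with the limit of 0.5 and 4 with the trend with gene length removed. With that trend removed, 2686 of all 13519 genes were called, against 1736 in the main fit. For Tet-PTF1a against Tet-MIST1 (6 of 8) the number of members was 4 to 7, 1 with the limit and 2 with all 24 libraries in 1 fit. For Tet-MIST1 against Tet-One (0 of 8) it was 1 (BAX) with the trend with gene length removed, alone or together with GC. Of all 13877 genes, 632 and 873 were called in these fits, against 231 in the main fit. For Control libraries the number of members was 6 to 8 (Tet-MIST1 against Tet-One) and 6 to 7 (Tet-PTF1a against Tet-One) when 1 library was left out, and 3 with the limit in both. BAX in Tet-PTF1a against Tet-One Control libraries turned from -0.38 to 0.21 with the trend with length and GC removed. The number of all genes called also changed with the setting. Where it is not given, these counts of members have no background beside them. The causes were not tested.

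Whether replicate numbers pair Control and Dox cultures is not stated. Correlations between same-numbered Control and Dox libraries ran from -0.37 to 0.04 (Tet-MIST1), -0.35 to 0.33 (Tet-One) and -0.02 to 0.08 (Tet-PTF1a). These values showed no steady pairing by number, but they cannot tell how the cultures were handled. The share of all genes called with a replicate block is not given here. With a replicate block, 0 members were called in Tet-MIST1 and 1 in Tet-PTF1a against Tet-One (4 with the block and the length trend removed). The block also ended the calls of BCL2 in Tet-PTF1a (FDR 0.089) and of BAK1 (FDR 0.0539) and BBC3 (FDR 0.0568) in Tet-PTF1a against Tet-MIST1, which left 5 and 4 members called there. Without the length trend removed, it changed no other call of a member.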
